A study of Mus musculus with 4 samples.

Results

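The adenosine deaminases that act on RNA form a small group of 6 mouse genes, chosen here by gene symbol alone from the 55401 rows of the deposited count table: Adar, Adarb1, Adarb2, Adat1, Adat2 and Adat3. All 6 rows were found, and 5 of them, all but Adarb2, held enough counts to be tested among 14180 genes. The libraries measured poly(A) RNA from splenic B cells of C57BL/6 mice, 2 libraries labelled wild type and 2 whose label names a conditional knockout (cKO), in B cells, of Adar1, another name of Adar. B cells were purified with anti-CD43 microbeads and all 4 libraries came from cells cultured for 36 h with anti-IgM at 10 µg/ml plus anti-CD40 at 1 µg/ml, antibodies that stand in for antigen and T-cell help. The Cre driver, the deleted segment of Adar, and the age and sex of the mice are not given in the labels, nor is it stated whether libraries of one genotype came from separate mice or cultures, so p-values measure only the spread between these libraries. Totals lay between 17327480 and 19669651 counts.

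Enzymes of this family turn adenosine in RNA into inosine, which is read much like guanosine. ADAR proteins act on double-stranded RNA. ADAR1, encoded by Adar, exists as a constitutive p110 form and an interferon-inducible p150 form, and its editing keeps cellular double-stranded RNA from being sensed as viral by MDA5. ADAR2, encoded by Adarb1, recodes neuronal messages such as that of an AMPA glutamate receptor subunit, and ADAR3, encoded by Adarb2, is a brain protein for which no editing activity is known. ADAT proteins act on transfer RNA. ADAT2 and ADAT3 together form the enzyme that makes inosine at the wobble position of the anticodon, with ADAT2 as its catalytic subunit, and ADAT1 deaminates the adenosine beside the anticodon of alanine tRNA.

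Per length, the 6 genes stood in the order Adar, Adat2, Adat1, Adat3, Adarb1 and Adarb2. Their mean deposited FPKM (counts scaled to exonic length and library total) over the 4 libraries was 22.7 for Adar, 6.12 for Adat2, 3.58 for Adat1, 1.03 for Adat3 and 0.568 for Adarb1, and Adarb2 was listed at 0. Ranges over the 4 libraries did not overlap between Adar (16.82 to 28.65 FPKM), Adat2 (5.75 to 6.69 FPKM), Adat1 (3.16 to 3.91 FPKM) and Adat3 (0.66 to 1.33 FPKM). Those of Adat3 and Adarb1 (0.45 to 0.74 FPKM) overlapped. Within each library Adat3 stood above Adarb1, by least in library 2 labelled cKO (0.66 against 0.60 FPKM). Among the tested genes, Adar ranked above 76.1% and 78.0% of genes by FPKM in the wild-type libraries and above 84.3% and 85.3% in those labelled cKO. Adat2 lay near the middle, above 49.1% to 53.3% of genes, and Adarb1 near the bottom, above 11.0% to 16.8%.

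**Figure D1:**
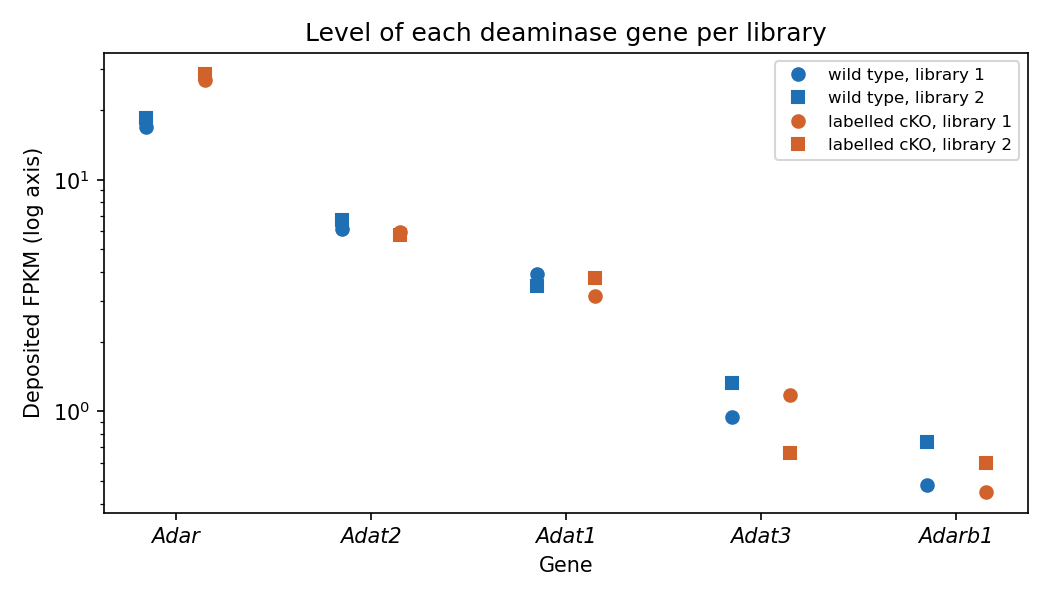
Deposited FPKM on a log axis for 5 deaminase genes, 1 point per library, with wild type in blue and libraries labelled cKO in orange. Adar is the highest gene in every library and is the gene whose orange points (26.86 and 28.65 FPKM) stand clear above the blue ones (16.82 and 18.47 FPKM); Adarb2, listed at 0 in every library, is not drawn.

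Counts of these genes depend on how reads in shared exons were assigned, and the assignment is not given in the sources used here. By GENCODE M21, 1365 of the 8118 exonic bases of Adar lie also in exons of Chrnb2, a nicotinic receptor subunit gene on the opposite strand, and 249 of the 1466 of Adat2 in exons of Pex3, a peroxisome assembly gene on the opposite strand. Adat3 has 1648 exonic bases, of which 1516 are shared with Gm49322 and 132 with Scamp4, both on the same strand, so that 0 of its bases belong to it alone. The Adat3 values are therefore uncertain in level. Adarb1, Adarb2 and Adat1 share 0 exonic bases with another gene. A measure added after the data were seen left shared bases out of the length. By it Adar stood at 27.3 in place of 22.7 FPKM, and Adat2 at 7.38 in place of 6.12 FPKM. This keeps all counts and holds only if reads in the shared bases were not counted, which is not known. Neither gene shares exonic bases with a gene of its own strand, so with stranded counting the deposited values would stand.

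**Figure D2:**
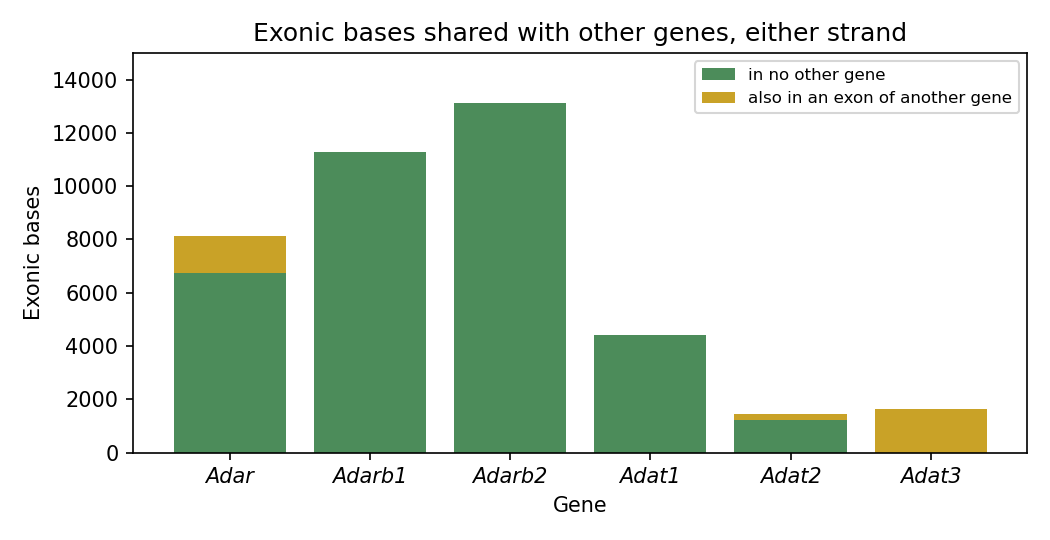
Exonic bases of each deaminase gene by GENCODE M21, split into bases in no other gene (green) and bases also in an exon of another gene on either strand (yellow). The bar of Adat3, 1648 bases, is wholly shared, whereas Adar keeps 6753 and Adat2 keeps 1217 bases of its own.

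Adar was the 1 deaminase gene that changed between genotypes, and it was higher in the libraries labelled cKO, against the direction that the label names. It held 2366 counts in library 1 of wild type and 2949 in library 2, against 3923 in cKO-labelled library 1 and 4058 in library 2. Scaled to library size, these are 137 and 149.97 CPM (counts per unit of library size, as FPKM without the length) in wild type against 218 and 233 CPM, with no overlap between genotypes. The fold change was 1.57 (95% interval 1.43 to 1.71), a log2 change of 0.65 ± 0.063 (SE, n = 2 libraries per genotype), with its adjusted p equal to 3.39e-08 in the quasi-likelihood test of edgeR, with p-values adjusted by Benjamini and Hochberg's method over all 14180 genes. Leaving out any 1 library kept this call, with log2 changes from 0.58 to 0.71. Chrnb2, which shares exonic bases with Adar, held 148 and 209 counts in wild type against 155 and 184, a change of -0.01 ± 0.18, so it held far fewer counts than Adar and was not called. As the labelled deletion is not seen in this gene-level count, every direction below is that of the label, and the libraries are called cKO-labelled. A count over the whole gene does not show whether a deleted segment is missing from its reads, nor which of the p110 and p150 forms rose.

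The rise of Adar is read against a background of many changed genes. Of the 5 deaminase genes tested, 1 was called at an adjusted p under 0.05, beside 21.7% of all genes tested (12.2% called higher and 9.54% lower), so the number of members called is near the background. In 2 of the 5, Adar and Adat2, the libraries of the genotypes did not overlap, 1 in each direction, beside 57.9% of all genes tested (29.2% with the cKO-labelled libraries higher and 28.7% with them lower). By size, 807 of the 1727 genes called higher had a larger change than Adar, and 8.40% of all genes tested. The median change of the 5 members was -0.14, and that of all genes -0.01.

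Adar is annotated with separate transcript starts. In GENCODE M21 the transcript Adar-202, with 930 codons, starts at base 89715022 of chromosome 3, and Adar-203, with 1178 codons, starts downstream at base 89730748. On textbook grounds the longer reading frame is that of p150. RefSeq windows from 250 bases before to 50 after each start were available on build GRCm38.p6 for 5 of the 6 members, all but Adat1, with 3 windows for Adar. They were searched on both strands for GAAANNGAA, letters found in sites bound by interferon regulatory factors, a motif chosen after the windows were read. Of 32851 windows of this length, 8.56% held it, and of 27025 genes 9.76%. Adar was the 1 member with a match. Its 2 matches, in capitals below, both lay in the window at the start of the longer form, at positions -249 to -241 and 34 to 42 from the RefSeq start (base 89730718). The downstream match is at bases 4 to 12 of the GENCODE start of Adar-203. The window of the upstream start is shown for comparison and held 0 matches, as did the third Adar window. Of general promoter letters, GGGCGG occurred in 5 of the 7 member windows, 2 of them of Adar, and in 35.7% of all windows, and TATAAA in 1, that of Adat2, and in 13.6% of all windows.
Adar, start of the longer form, chr3:89730468-89730767, plus strand: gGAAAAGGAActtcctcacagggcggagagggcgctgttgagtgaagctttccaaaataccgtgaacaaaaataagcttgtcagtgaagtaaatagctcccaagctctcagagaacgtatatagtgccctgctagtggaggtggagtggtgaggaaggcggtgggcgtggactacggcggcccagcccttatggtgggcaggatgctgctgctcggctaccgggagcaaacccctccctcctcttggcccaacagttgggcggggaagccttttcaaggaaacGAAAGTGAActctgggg
Adar, upstream start, chr3:89714772-89715071, plus strand: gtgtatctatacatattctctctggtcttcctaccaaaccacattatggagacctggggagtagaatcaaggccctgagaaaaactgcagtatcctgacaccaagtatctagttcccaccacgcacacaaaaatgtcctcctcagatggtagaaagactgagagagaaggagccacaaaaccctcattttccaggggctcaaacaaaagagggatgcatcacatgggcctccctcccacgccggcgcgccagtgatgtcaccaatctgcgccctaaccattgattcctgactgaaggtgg

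A stricter form, the motif above with a further A at its 3′ end, occurred in 3.44% of windows and in 0 of the 7 windows of the members. The same search was made in the genes that sense double-stranded RNA or act on that signal, described below, of which 14 had a window: 8 held GAAANNGAA and 6 held the stricter form. The 30-base stretches around the downstream match of Adar and around matches in Eif2ak2 (the kinase PKR), Oas3, Ifih1 (the sensor MDA5) and Trim25 (a ubiquitin ligase of the RIG-I pathway) are given to show the shared letters, each on the strand of its gene. Capitals mark 1 match of 9 bases each, which in Trim25 reads on the opposite strand; Oas3 and Eif2ak2 each hold another that overlaps it.
Adar, chr3:89730738-89730767: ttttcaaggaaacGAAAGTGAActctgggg
Oas3, chr5:120777709-120777738: aggagaaaacGAAAGTGAAgggaggtgact
Eif2ak2, chr17:78882535-78882564: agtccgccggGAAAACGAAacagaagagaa
Ifih1, chr2:62646206-62646235: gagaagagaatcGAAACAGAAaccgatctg
Trim25, chr11:88999384-88999413: gcccctcctgTTCAGTTTCgattccttcct
Adar and Oas3 hold the same 9 letters, GAAAGTGAA. Of the double-stranded RNA genes, Ifih1, Ddx58, Eif2ak2, Oas1a, Oas1g, Oas3 and Trim25, all called higher, and Ripk3, not called, held GAAANNGAA. Oasl1, Oasl2, Tlr3 and Mlkl, all called higher, and Mavs and Prkra, not called, held none. Whether a match goes with a rise was not tested. A match is a description of letters in these windows and does not show that a factor binds there.

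The other ADAR genes were low or without counts. Adarb1 (chromosome 10, 77290726 to 77418270) held 93 counts in library 1 of wild type and 163 in library 2, against 92 and 119 in the libraries labelled cKO. At 5.40 and 8.29 CPM against 5.11 and 6.82 CPM, the genotypes overlapped, and the gap within wild type was larger than that between genotype means. Its log2 change was -0.21 with a 95% interval of -0.68 to 0.27 and adjusted p 0.606 in edgeR's test. As a fold that interval runs from 0.62 to 1.21. The sign rested on wild-type library 2: without it the change was 0.14.

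Adarb2 (chromosome 13, 8202866 to 8768747) had 0 counts in all 4 libraries, although its annotated exons span 13114 bases. A count of 0 allows up to 3 counts, or 0.153 to 0.173 CPM and 0.0116 to 0.0132 FPKM per library, a limit that covers counting error only. Of 3 neuronal markers, Rbfox3 and Snap25 were at 0 in every library, and the summed level of the 3 was at most 0.102 CPM. The ADAR-related testis genes Adad1 and Adad2 were likewise near 0, with 0 counts in every library for Adad1 and 2 counts for Adad2, both in cKO-labelled library 2. Within the group, Adar was thus the ADAR gene with most of the RNA in these cells. Its ratio to Adarb1 in FPKM was 35.0 and 25.0 in wild type against 59.7 and 47.8 in libraries labelled cKO.

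The 2 genes of the wobble deaminase differed in the counts assigned to them per length, and neither was called. As all Adat3 exons are shared, this does not show a difference in RNA level. Adat2 (chromosome 10, 13552894 to 13563376), the catalytic subunit, held 155 and 193 counts in wild type, against 157 and 147 where the label is cKO. In CPM these were 8.995 and 9.81 against 8.72 and 8.42, so all cKO-labelled values lay below both wild-type values, by little. The log2 change was -0.14 (95% interval -0.49 to 0.22), and the adjusted p was 0.657 in edgeR's test. Pex3, which shares exonic bases with it, had a change of 0.04 ± 0.11.

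Adat3 (chromosome 10, 80602880 to 80607654), the partner subunit, had the fewest counts of the tested members, 27 and 43 in wild type against 35 and 19 in libraries labelled cKO. At 1.57 and 2.19 CPM against 1.94 and 1.09 CPM the genotypes overlapped: cKO-labelled library 1 lay between both wild-type values and library 2 below them. With a log2 change of -0.31 and a 95% interval from -1.16 to 0.54, a change of 0.45-fold to 1.45-fold could not be told from none at this depth, and the adjusted p was 0.676 in edgeR's test. Without cKO-labelled library 2 the change was 0.04. Of the genes that share its exons neither was called: Scamp4, a secretory carrier membrane protein gene, stood at -0.16 ± 0.20 and Gm49322 at -0.09 ± 0.25. In FPKM, Adat2 was 6.42 and 5.03 times Adat3 in wild type, and 5.04 and 8.71 times where the label is cKO. This ratio shows counts assigned to each gene rather than the stoichiometry of the enzyme, since all Adat3 exons are shared.

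Adat1 (chromosome 8, 111966908 to 111992302) held 298 and 301 counts in wild type against 250 and 289 in libraries labelled cKO, or 17.29 and 15.3 against 13.9 and 16.6 CPM. The genotypes overlapped, and without cKO-labelled library 1 the change was 0.02. Its log2 change was -0.10 (95% interval -0.38 to 0.19), the narrowest interval of the 4 members that were not called, with adjusted p 0.697 in edgeR's test. Summed over the 3 ADAT genes, the libraries held 27.7 and 27.3 CPM in wild type against 24.6 and 26.1 CPM in libraries labelled cKO. Adar took 80.5% and 80.8% of all counts of the 6 genes in wild type, and 88.0% and 87.6% in the cKO-labelled libraries. Scaled to length, its share of their summed FPKM was lower, at 59.5% and 60.1% in wild type against 71.4% and 72.7%.

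**Figure D3:**
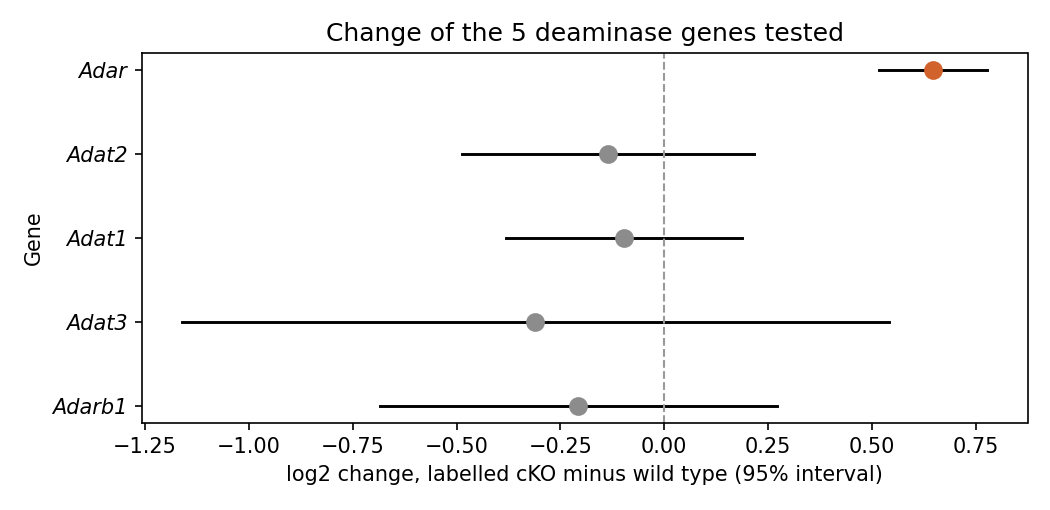
Log2 change, cKO-labelled minus wild type, of the 5 deaminase genes tested, with 95% intervals from the quasi-likelihood fit. The interval of Adar (orange, called) runs from 0.52 to 0.78 and is clear of 0, and those of the other 4 genes (grey) include 0.

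Beside the deaminases stand the genes they work with, in lists chosen with earlier results of these data known. Among genes that sense double-stranded RNA or act on that signal, 14 of 18 tested were higher and 0 lower. That is 77.8% called, beside 21.7% of all genes tested in either direction and 12.2% higher. Their median log2 change was 1.66. Oas3, Oasl2 and Oas1a, of the oligoadenylate synthetase family, had the smallest adjusted p-values. Oas3 rose from 13.3 and 11.8 CPM to 119 and 107 CPM, a change of 3.17 ± 0.087, Oasl2 by 3.11 ± 0.099 and Oas1a by 2.11 ± 0.075. Ifih1, whose product MDA5 is a sensor that ADAR1 restrains, rose from 35.8 and 38.9 CPM to 122 and 134 CPM. Its change was 1.78 ± 0.071. Of the 14 called genes, 13 had a larger change than Adar and 1, Trim25, a smaller one at 0.58 ± 0.066.

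Partners and regulators of RNA editing mostly did not pass the test: of 18 tested, 2 were higher and 0 lower (11.1% called, against 21.7% of all genes tested), with a median of 0.04. Fmr1, an RNA-binding protein that interacts with ADAR enzymes, rose from 83.7 and 88.3 to 111 and 104 CPM (0.33 ± 0.064, adjusted p 0.000543 in edgeR's test). Without wild-type library 2, without cKO-labelled library 1 or after removal of the trend with GC content, 1 gene of this list was called higher. The helicase gene Dhx9, at 480 and 487 CPM in wild type against 507 and 471 CPM in libraries labelled cKO, had a change of 0.01 ± 0.058, and Zfr, a regulator of ADAR1 editing, one of 0.12 ± 0.059 with adjusted p 0.146 in edgeR's test.

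Genes of the tRNA anticodon loop, the part of tRNA in which the ADAT enzymes act, changed in 4 of 32 tested (1 higher, 3 lower, 12.5% called, below the 21.7% of all genes tested), with a median of -0.09. Osgep, which acts in making a modified adenosine next to the anticodon, fell by 0.31 on the log2 scale (65.5 ± 4.08 to 52.8 ± 1.85 CPM, mean ± SD, n = 2). The pseudouridine synthase gene Pus7 fell by 0.20 and Qtrt1, a subunit of the queuosine enzyme, by 0.27. These calls were fragile: Osgep lost its call without wild-type library 1, Pus7 without any 1 of the 4 libraries, and Qtrt1 without wild-type library 2, without cKO-labelled library 1 and after removal of the GC trend (-0.16, adjusted p 0.219 in edgeR's test). Cdk5rap1, a tRNA methylthiolation enzyme that was named as the 1 higher gene after its values were seen, rose by 0.38 ± 0.14. Without wild-type library 1 this list held 0 higher and 1 lower call, and without cKO-labelled library 1 likewise 0 and 1. Trmt5, whose yeast counterpart methylates the inosine beside the anticodon of alanine tRNA, stood at 24.1 and 26.9 CPM in wild type against 35.0 and 28.0 CPM where labelled cKO. Its change, 0.31 ± 0.11, missed the threshold (adjusted p 0.0534 in edgeR's test), and it passed without wild-type library 2 (0.0332), without cKO-labelled library 2 (0.00429) and with no filter on low counts (0.0382). Without cKO-labelled library 1 its change was 0.13 (0.549).

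The synthetases that charge tRNAs with wobble inosine, those for alanine, isoleucine, leucine, proline, arginine, serine, threonine and valine, were lower in 5 of 8 tested and higher in 0 (62.5% called, beside 21.7% of all genes tested in either direction and 9.54% lower), with a median of -0.18. Sars fell by 0.33 (416 and 388 to 326 and 315 CPM), Iars by 0.31 and Lars by 0.31, and the other two called were Aars and Vars. Without wild-type library 1, 3 of 8 were called lower. Of 12 other cytosolic synthetases, 3 were lower and 0 higher (25% called, near the 21.7% of all genes), with a median of -0.07. They comprised Gars, which fell by 0.36, Cars, which fell by 0.33, and Yars, which fell by 0.30. The difference between both synthetase lists was not tested.

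Enzymes of free adenosine and inosine went both ways, with 2 of 16 tested genes higher and 4 lower (37.5% called, against 21.7% of all genes tested), with a median of -0.07. Impdh1, which draws inosine monophosphate into guanine nucleotide synthesis, fell from 25.0 and 22.7 to 13.0 and 14.0 CPM (-0.82 ± 0.12). The adenine salvage gene Aprt fell by 0.30 and the AMP deaminase gene Ampd2 by 0.30, and after removal of the GC trend both were still called, at -0.17 and -0.19. Endov, a ribonuclease that cuts RNA at inosine, fell by 0.31, from 35.5 and 40.6 to 30.1 and 31.5 CPM, with adjusted p 0.0212 in edgeR's test. It lost the call without wild-type library 2, without cKO-labelled library 1 and after removal of the GC trend. The higher genes were Ada, the deaminase of free adenosine (9.87 and 9.97 to 17.2 and 12.7 CPM), and Nt5e, the ecto-enzyme CD73 that makes adenosine from AMP (1.80 and 1.78 to 4.22 and 2.92 CPM). Both were named after their values were seen. Of these 2 higher calls, 1 was left without either wild-type library and 0 without cKO-labelled library 1.

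**Figure D4:**
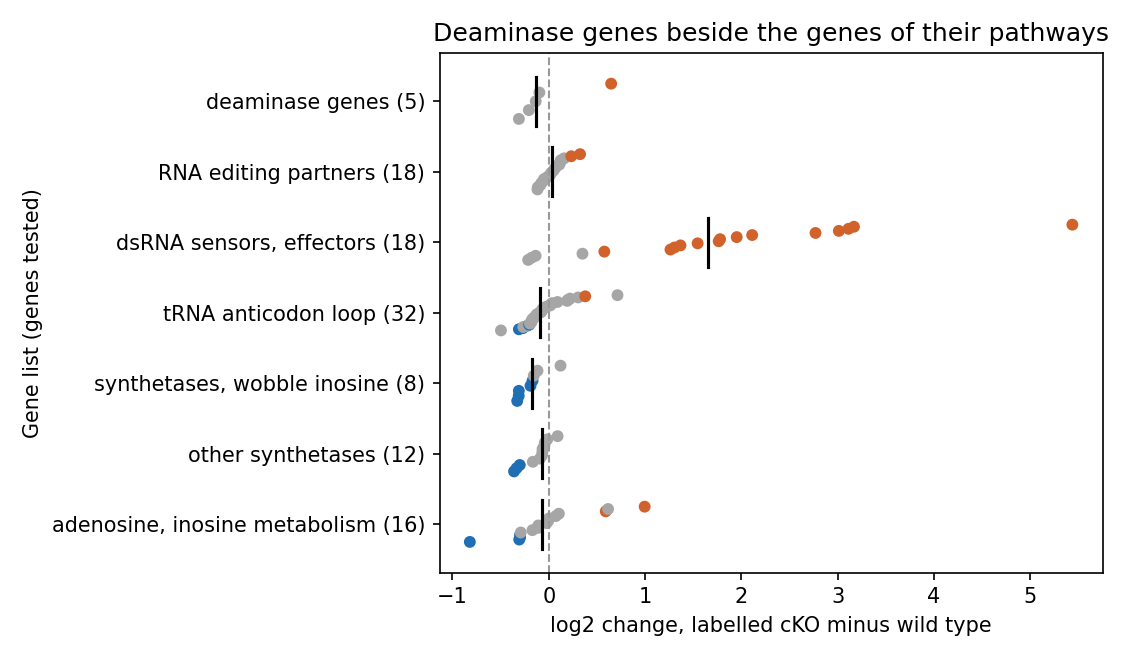
Log2 change, cKO-labelled minus wild type, of each gene tested in 7 lists, 1 point per gene, orange for called higher, blue for called lower and grey for not called, with a black line at the list's median. The double-stranded RNA sensors lie to the right with a median of 1.66, and the deaminase genes hold 1 orange point, Adar at 0.65.

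The genes whose profile over the 4 libraries was most like that of Adar were sought among 9658 other genes whose mean reached 5 CPM, by the Euclidean distance of log2 CPM centred on each gene's mean. They were Jak2, a kinase of cytokine receptors (distance 0.031), Etv3, an ETS repressor (0.032), Irs2, an insulin receptor substrate (0.033), Rgs12, a regulator of G-protein signalling (0.042), and Pfkfb3, a glycolytic regulator (0.047). Jak2 stood at 107 and 115 CPM in wild type against 169 and 176 CPM in libraries labelled cKO. Their log2 changes lay between 0.62 and 0.65, a closeness to Adar that the choice by distance builds in. With 4 libraries such likeness is weak: 301 genes had a Pearson correlation with Adar of at least 0.99, and the 5 most correlated genes shared 0 names with the 5 nearest ones. By distance Rgs12, the lowest of them at 5.57 to 9.23 CPM, lost its own call without wild-type library 1 and without cKO-labelled library 2. None of the windows of these 5 nearest genes held GAAANNGAA.

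Markers of the purified cells and of other cells also moved with genotype. B-cell markers were high in every library, with Cd79a at 964 and 908 CPM in wild type against 730 and 744 CPM in libraries labelled cKO. Of 6 B-cell markers 4 were lower and 1, Cd74, was higher. The 6 dendritic cell markers summed to 58.1 and 57.0 CPM in wild type against 108 and 113 CPM in libraries labelled cKO. Of 4 tested members 3 were higher. Most of that sum was Zbtb46 (40.9 and 40.0 against 59.1 and 66.9 CPM) and Flt3 (13.1 and 13.3 against 42.0 and 38.4 CPM). Also called was Itgax, low at 0.41 and 0.51 against 2.00 and 2.92 CPM. Xcr1 was not called (adjusted p 0.292 in edgeR's test). Clec9a, at 1 to 2 counts, and Siglech, at 2 to 14 counts, were too low to be tested. Erythroid markers summed to 0.519 and 0.813 CPM against 2.83 and 2.98 CPM, and neutrophil markers to 0.559 to 1.10 CPM against 2.00 to 3.21 CPM, with Ly6g at 0. The sums of T-cell, NK-cell and stromal markers were at most 2.64 CPM in any library, and that of macrophage markers lay between 14.4 and 16.9 CPM. Their part in the values of Adar and of the lists was not tested, and in bulk RNA fewer cells of a type and less RNA per cell cannot be told apart.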

How the data were processed

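The deposited table gives each gene's raw counts (whole numbers) by library and the FPKM that the authors made from them. GRCm38, HISAT2 2.0.1, HTSeq 0.6.1, cutadapt 1.9.1 and bcl2fastq 2.17.1.14 are named, per the submitters' processing notes. Which annotation release and which strand and overlap settings were used is not given. Libraries were poly(A)-selected and built with the NEBNext Ultra kit, per the labels' protocols. Recomputed FPKM lay within 0.005 of the deposited FPKM, and exonic lengths equalled those of GENCODE M21 for all 6 members.

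Counts were tested in R 4.3.3 with the quasi-likelihood test of edgeR 4.0.16 on all 4 libraries, after TMM scaling and filterByExpr with 10 as minimum count and 15 as minimum total. P-values were adjusted by Benjamini-Hochberg over 14180 genes and genes called at an adjusted p under 0.05. CPM uses TMM-scaled library sizes; marker sums, ADAT sums and floors use library totals. An SE is the absolute change over the root of F. The fit was first tested on simulated data. Replicates differed beyond sampling noise, with a chi-square per gene of 6.41 in wild type and 3.55 in cKO. Named by rule were the members, the 3 called genes of each list with the smallest adjusted p, Trmt5, Endov, Ifih1, Dhx9, Zfr, genes overlapping a member, and the 5 genes nearest to Adar, with predicted genes passed over; some genes that the rule names are not reported here. Members, lists and tests were chosen with earlier results of these data known. Alternatives were RLE factors, DESeq2 1.42.0, no filter, each library left out, the replicate number as a block, ribosomal RNA rows and Lars2 left out, and removal of the trend with GC content.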

Additional observations from a re-analysis of the deposited data

How the results depend on the processing

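Adar kept its direction and its call in all 10 alternative fits, with log2 changes from 0.58 to 0.71, and none of the other 4 deaminase genes tested was called in any of them. With DESeq2 1118 genes were called higher and 740 lower, against 1727 and 1353. Leaving out 1 library gave 1293 to 1469 higher and 984 to 1252 lower. The replicate numbers are shared between genotypes, but deviations of same-numbered libraries had a correlation of -0.0288; with the number as a replicate block 1904 genes were higher and 1594 lower, the double-stranded RNA list gained 1 lower call and the anticodon loop list had 2 higher, Trmt5 was called (adjusted p 0.0203), and Adar changed by 0.65. The anticodon loop list had 2 higher without the filter, and 0 higher and 1 lower with DESeq2. The editing partner list had 1 higher with DESeq2 and after removal of the GC trend, and adenosine metabolism had 0 higher with DESeq2. Leaving out 1 library gave 0 to 2 higher and 1 to 4 lower for the anticodon loop, 1 to 2 higher for editing partners, 3 to 5 lower for wobble synthetases, 0 to 2 higher for adenosine metabolism and 0 to 2 lower for double-stranded RNA genes. Uncalled genes changed sign: leaving out 1 library gave -0.482 to 0.136 for Adarb1, -0.229 to 0.0237 for Adat1, -0.791 to 0.0429 for Adat3, -0.0409 to 0.0667 for Dhx9, -0.163 to 0.15 for Chrnb2, -0.389 to 0.0381 for Scamp4 and -0.0307 to 0.106 for Pex3. Without the GC trend Dhx9 was at -0.0421, Chrnb2 at 0.0468, Gm49322 at 0.0428 and Pex3 at -0.0477. With DESeq2 Pus7, Qtrt1, Endov and Rgs12 lost their calls. The cause of these moves was not tested. Among the tested members, Adat3 had the fewest counts and the widest interval.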
